A study of Mus musculus with 14 samples.

Results

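The regions described here are stretches of the mouse genome that carried an H3K27ac peak in each of 6 libraries of regulatory T cells. Of these libraries, 3 were from chimeras whose label gives a Slc31a1 deletion, called knockouts here, and 3 from control chimeras. The regions were found by merging the 6 peak lists of chromosomes 1 to 19 wherever peaks overlapped by at least 1 bp. Merged regions under 10 kb wide that held a peak of every list were kept. Regions were thus selected on presence in every list and on merged width. This gave 12214 shared regions out of 36809 merged regions, or 33.2%. Their presence in all 6 lists is a description. How wide each library's peak was, and in how many pieces, set no further criterion. Both are still tied to the merge, since a gap open in all 6 lists ends a region. A library is thus split only where peaks of other lists bridge its gap.

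The study profiled histone marks by CUT&Tag, in which a transposase tethered to an antibody cuts out the DNA around marked nucleosomes, with 140000 sorted cells per sample. The knockout cells came from mice that the labels call Foxp3YFP-Slc31a1△;wt, titled ChimeraKO. The control cells came from mice called Foxp3YFPcre;wt, titled ChimeraWT. Libraries of either kind are numbered 1 to 3. A Foxp3-driven Cre acts in cells that express Foxp3, the lineage factor of regulatory T cells, and YFP marks these cells for sorting. The labels give no age or sex and do not explain the chimeras. They give the libraries of a mark different chimera numbers but do not say that a number is 1 animal, so p-values measure the spread between these libraries, which may be technical. Of 14 samples, 6 were H3K27ac, 4 were H3K27me3 and 4 were IgG, and the IgG samples were not analysed here.

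H3K27ac is placed by the acetyltransferases p300 and CBP on nucleosomes around active promoters and enhancers, and bromodomain proteins bind it. The regulatory DNA itself is often free of nucleosomes, so an acetylated stretch can be interrupted. Slc31a1 encodes CTR1, the copper importer of the cell surface. Copper serves cytochrome c oxidase and other enzymes. No annotation of the build of the lists, mm39, was used, so regions are given by position and not by gene, and marker loci of regulatory T cells were not checked.

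The libraries differed in depth, background and list length, and the part of depth and background in the results below was not tested. Read back from the lists, the fragment depth was 11.0, 10.9 and 9.10 fragments per kb of genome in knockouts 1 to 3, against 12.4, 8.49 and 9.02 in controls 1 to 3. The background library behind each list was deeper in every knockout, at 20.6 fragments per kb in all 3, against 16.1, 13.1 and 13.1 in the controls. Background library and genotype therefore cannot be told apart. The background depths were nearly equal among the 3 knockouts, and also between controls 2 and 3. The sources used here do not say whether such lists shared 1 background library, so they may not be independent in this respect. No peak was narrower than 232, 279 and 264 bp in knockouts 1 to 3, against 232, 246 and 234 bp in controls 1 to 3, and this width is taken below as each library's fragment length. In each list the smallest gap between neighbouring peaks was 1 bp longer than that, so knockout 2 joined peaks across the longest gaps. Knockout 3 had the shortest list, with 20900 autosomal peaks: of 3055 merged regions found in exactly 5 lists, 1791 (58.6%) lacked a peak of knockout 3 alone.

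The merged shared regions were 385 to 9995 bp wide, with a median of 2290 bp. The regions nearest to the width limit measured 9995, 9981 and 9981 bp inside it and 10009, 10014 and 10022 bp outside it, and 599 regions found in all 6 lists were too wide. Together the shared regions spanned 34.7 Mb. A core of 18.2 Mb (52.5%) lay under a peak of all 6 libraries. The median region had a core of 1002 bp, or 49.0% of its merged width, with quartiles of 30.7 and 66.0%. In 351 regions no single base was common to all 6. Bases covered in all 3 knockouts and no control came to 439 kb (1.27% of the merged length), and bases covered in all 3 controls and no knockout to 334 kb (0.963%). Under peaks of a single library lay 1387 kb for knockout 2, against 302 to 489 kb for each other library. Covered in all libraries but 1 were 1560 kb for knockout 3 and 1023 kb for control 1. For each other library this was 123 to 525 kb.

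The knockouts showed no common change in the width of shared regions. The median number of bases under peaks per region was 1718 in knockout 1, 1905 in knockout 2 and 1472 in knockout 3, against 1670, 1629.5 and 1650 in controls 1 to 3. Knockout 2 was above every control, knockout 3 below every control, and knockout 1 a little above them. These medians averaged 1698 ± 217 bp over the 3 knockouts and 1650 ± 20.3 bp over the 3 controls (SD), and the difference of 48.5 bp had a two-sided exact permutation p of 0.7. It turned to -54.8 bp without knockout 2 and grew to 162 bp without knockout 3, so its direction rested on which knockout library was counted.

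**Figure D1:**
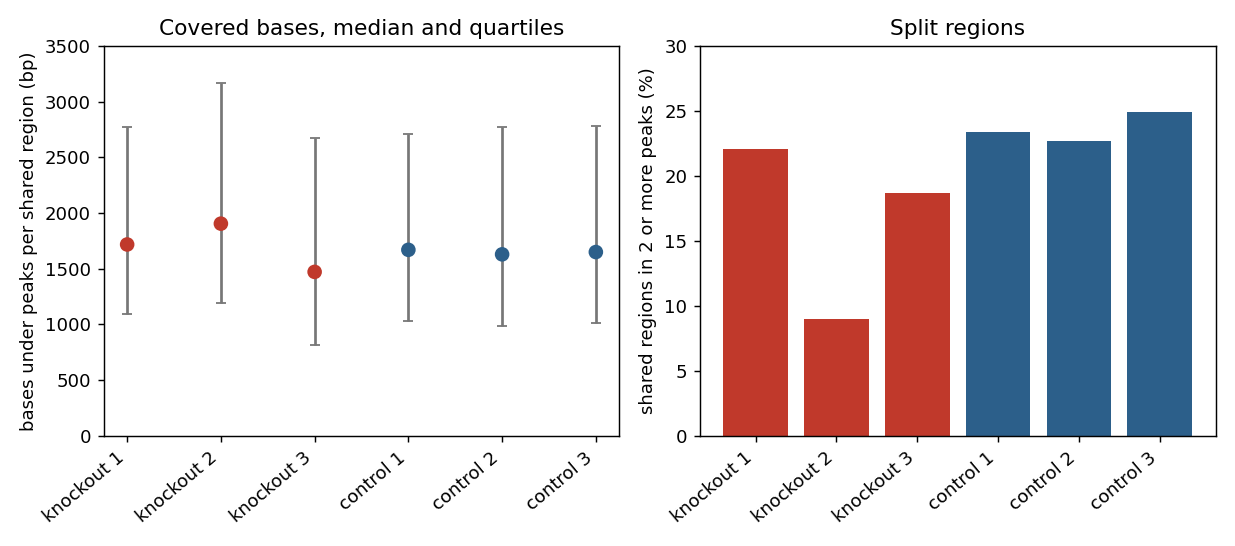
Left, median number of bases under H3K27ac peaks per shared region in each library, with bars for the quartiles over 12214 regions. Right, percentage of shared regions held as 2 or more peaks. The 3 controls sit close together in both panels, while the knockouts spread from 1472 to 1905 bp and from 9.02 to 22.0%.

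The spread among knockouts also showed region by region. The SD of log2 covered bases had a median of 0.26 among knockouts and 0.20 among controls, and the knockout SD was the higher in 7428 regions (60.8%). Knockout 2 was the widest library in 39.4% of regions, against 17.0% for knockout 1, 6.52% for knockout 3, and 15.0, 10.3 and 11.2% for controls 1 to 3. Knockout 3 was the narrowest in 35.9%, against 11.3% for knockout 1, 3.03% for knockout 2, and 22.7, 13.2 and 13.4% for controls. These shares were not tested, since regions of 1 library are not replicates.

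Splitting, the number of separate peaks that a library had within a shared region, had a lower share in each knockout than in each control, in a design too small to pass a threshold of 0.05. Regions in 2 or more peaks made up 22.0, 9.02 and 18.7% of shared regions in knockouts 1 to 3, against 23.4, 22.7 and 24.9% in controls 1 to 3. Each knockout was below each control, narrowly so for knockout 1. The shares averaged 16.6 ± 6.76% over the 3 knockouts and 23.7 ± 1.13% over the 3 controls (SD), a difference of -7.09 percentage points. Its exact permutation p of 0.1, two-sided, is the smallest that 3 against 3 libraries allow. The total number of peaks in shared regions followed the same order, with 15693, 13428 and 14906 in knockouts and 15919, 15707 and 16173 in controls (exact permutation p = 0.1).

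The separation of the groups changed with how the lists were cut. With all lists cut to the 20900 strongest peaks and regions chosen anew, 16.9, 7.48 and 19.9% of 9892 shared regions were split in the knockouts, against 16.5, 18.0 and 19.01% in the controls (exact permutation p = 0.7), and the difference was -3.10 points. Knockout 2 was then the only knockout below every control. With peaks of −log10 q of at least 10, 16.0, 4.39 and 10.0% of 7545 shared regions were split in the knockouts, against 17.2, 15.3 and 18.7% in the controls (exact permutation p = 0.2). The difference was then -6.94 points, and knockouts 2 and 3 were below every control. Without knockout 2, the difference on the full lists was -3.31 points. Joining the peaks of every list across gaps up to 279 bp, the fragment length of knockout 2, left 19.1, 9.02 and 17.5% split in knockouts, against 20.2, 20.6 and 21.6% in controls (exact permutation p = 0.1). Joined across gaps of 500 bp, the groups overlapped, at 9.60, 3.18 and 8.61% against 10.4, 9.59 and 9.78% (exact permutation p = 0.2).

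Splitting was more frequent in wider regions in every library. The difference between group means, in percentage points, was largest in the widest of 4 size classes, where splitting itself was most frequent. Shared regions were sorted into 4 classes by mean covered bases over the 6 libraries. In the narrowest class, with up to 1066 bp, 4.16, 1.77 and 2.16% were split in knockouts, against 3.93, 3.57 and 4.49% in controls, and the groups overlapped. In class 2 the shares were 11.4, 6.78 and 9.86% in knockouts, against 12.8, 14.6 and 15.3% in controls. In class 3 they were 24.3, 11.8 and 23.6%, against 25.3, 26.5 and 29.0%. Every knockout was below every control in both of these classes (exact permutation p = 0.1 in each). The differences of means were -1.30, -4.90 and -7.06 points in classes 1 to 3. In the widest class, from 2753 bp, the shares were 48.4, 15.8 and 39.1% in knockouts, against 51.6, 46.0 and 50.9% in controls. Knockout 1 lay within the controls there and knockout 2 far below them. The difference of means in that class was -15.1 points (exact permutation p = 0.2). Covered bases of this class had medians of 3979, 4563.5 and 4028 bp in knockouts, against 3866, 4076 and 4091 bp in controls.

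**Figure D2:**
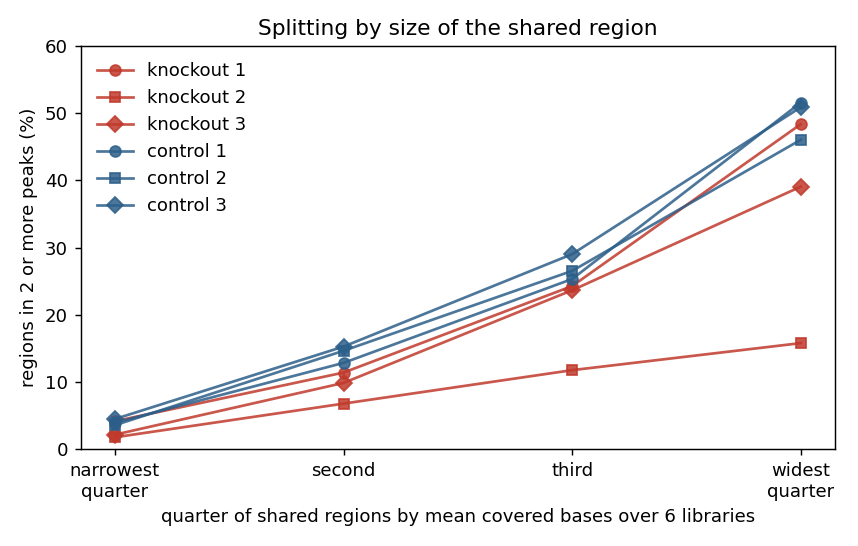
Percentage of shared regions in 2 or more peaks, for 4 classes of regions ordered by mean covered bases over the 6 libraries, 1 line per library. All lines climb with size, and knockout 2 ends at 15.8% where the other libraries end between 39.1 and 51.6%.

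A single peak in all 6 libraries was found in 6780 regions (55.5%), and 196 (1.60%) were split in all 6. Among these single-peak regions the median width was 1362, 1405.5 and 1076 bp in knockouts, against 1288.5, 1230.5 and 1250 bp in controls, with knockouts again on both sides of the controls. Regions split in all 3 controls but in no knockout numbered 129 (1.06%), and regions split in all 3 knockouts but in no control 20 (0.164%). The shares of these patterns over all regions tested were not computed, so nothing is read from these counts. Of the 1306 regions split in all 3 controls, 293 were a single peak in knockout 1, 950 in knockout 2 and 524 in knockout 3. The controls are split there by choice, so these counts compare the knockouts only with each other. Regions in which only 1 library was unsplit numbered 46, 454 and 82 for knockouts 1 to 3, against 57, 51 and 31 for controls 1 to 3.

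The gaps themselves were followed base by base. A gap inside a merged region is bridged by peaks of other lists, since the region would otherwise end there. A gap open in all 3 controls therefore had to be bridged by knockout peaks, and the reverse. All 3 controls shared 1186 gaps, in 998 regions, with a median length of 334.5 bp common to all 3. Of these gaps, 26.1% lay wholly under a peak in knockout 1, 88.8% in knockout 2 and 47.5% in knockout 3, and 164 (13.8%) in all 3 knockouts. At least 1 knockout covered 1175 (99.1%), a share that the merge largely fixes. The knockouts shared 259 gaps, of which 46.3, 54.4 and 44.8% were covered in controls 1 to 3, and 33 (12.7%) in all 3. At least 1 control covered 249 (96.1%). To set a library against a control of the same kind, gaps open in a pair of controls were taken. The remaining control covered between 25.2 and 28.8% of them. Knockout 1 covered between 28.8 and 29.6%, knockout 3 between 43.5 and 46.8% and knockout 2 between 80.7 and 83.1%. Gap closure in knockout 1 was thus near that of a further control, and in knockout 2 well above it. The gaps of a pair, too, lie in a region only where other lists bridge them. High closure by the list that joined peaks most is therefore partly fixed by the merge. These gaps were examined after the split counts were seen, and no test was made.

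**Figure D3:**
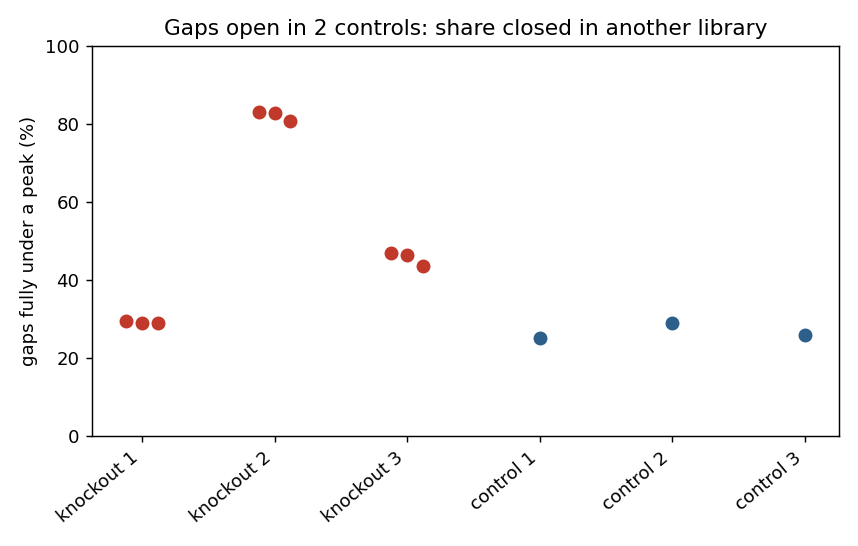
Percentage of gaps, open in both libraries of a pair of controls, that lay wholly under a peak of another library. Each knockout has 3 points, 1 for each pair of controls, and each control has 1 point, for the pair it is not part of. Every such gap is bridged by peaks of other lists, as the merge requires. Knockout 2 lies above 80%, knockout 3 between 43.5 and 46.8%, and knockout 1 between 28.8 and 29.6%, against 25.2 to 28.8% for the controls.

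Where a region was in 2 peaks, they were of unequal size in both genotypes. The smaller peak had a median of 550.5, 627 and 591 bp in knockouts and 543, 573 and 548 bp in controls, and the larger one 1871.5, 1905.5 and 1739 bp in knockouts against 1743, 1715.5 and 1785 bp in controls. The gap fell in the middle of the region, defined as the central 1 of 3 equal parts, in 44.0, 48.2 and 52.8% of knockout cases and 45.6, 47.5 and 45.6% of control cases. Its median length was 415, 402.5 and 443 bp in knockouts and 410, 416 and 401 bp in controls. In each of these measures the knockouts overlapped the controls.

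Both ends of a region were shifted alike. Against the median position over the 6 libraries, with outward counted as positive, the left end lay at 2, 32.8 and -34.5 bp in knockouts 1 to 3, as medians over regions. The right end lay at 2.5, 30.5 and -32 bp. In the controls the medians over regions were within 2 bp of that position at both ends. Single regions spread further. Quartiles of the left end were -95.5 and 62.5, -78.5 and 50, and -62 and 65 bp in controls 1 to 3. In knockouts 1 to 3 they were -59 and 74.4, -11.5 and 163.5, and -176.5 and 25 bp. Both ends lay outward in 30.5, 44.7 and 14.5% of regions in knockouts 1 to 3, against 24.97, 21.0 and 26.5% in controls, with overlapping groups. The averages were 29.9 ± 15.1% over knockouts and 24.1 ± 2.81% over controls (SD, exact permutation p = 0.7). The shifts of knockouts 2 and 3 were thus of opposite direction and about equal at both ends.

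Summits of the strongest peak in a region lay at similar distances within and between genotypes. The median distance between summits was 57 to 111 bp for the 9 pairs of a knockout and a control, 78 to 107 bp for the 3 knockout pairs and 68.5 to 77 bp for the 3 control pairs. Within 200 bp of each other lay 68.7 to 79.0% of summits in knockout and control pairs, 70.0 to 76.5% in knockout pairs and 74.8 to 77.4% in control pairs. Log2 covered bases correlated across the 12214 regions with Pearson's r of 0.76 to 0.85 between a knockout and a control, 0.83 to 0.90 between knockouts and 0.85 to 0.92 between controls. The points are regions of the same libraries, and neither measure is tested.

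Region by region, few shared regions were called as changed in width. Log2(covered bases + 100) was tested with limma over all 21951 merged regions that had a peak in at least 3 lists, after centring each library on the median of the regions covered in all 6. At an adjusted p under 0.05, 93 shared regions (0.761%) were narrower and 43 (0.352%) wider in knockouts. Over all regions tested, 1.88% were narrower and 0.497% wider. These include regions with no peak in some libraries, which the choice of shared regions leaves out, so nothing is read from the lower shares. Without centring, 82 shared regions (0.671%) were narrower and 84 (0.688%) wider, against 3.31% and 1.19% of all regions tested. Among the shared regions called, 49.4% were then narrower, against 68.4% with centring. The centring sets the median log2 change of shared regions near 0. Its quartiles were -0.18 and 0.20, and in 83.4% of shared regions the change was smaller than 0.5 in size. Without centring the median was 0.04 over shared regions and -0.02 over all regions tested. By a plain comparison, 897 shared regions (7.34%) had fewer covered bases in every knockout than in every control, and 1440 (11.8%) had more, against 12.8 and 10.1% of all regions tested.

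**Figure D4:**
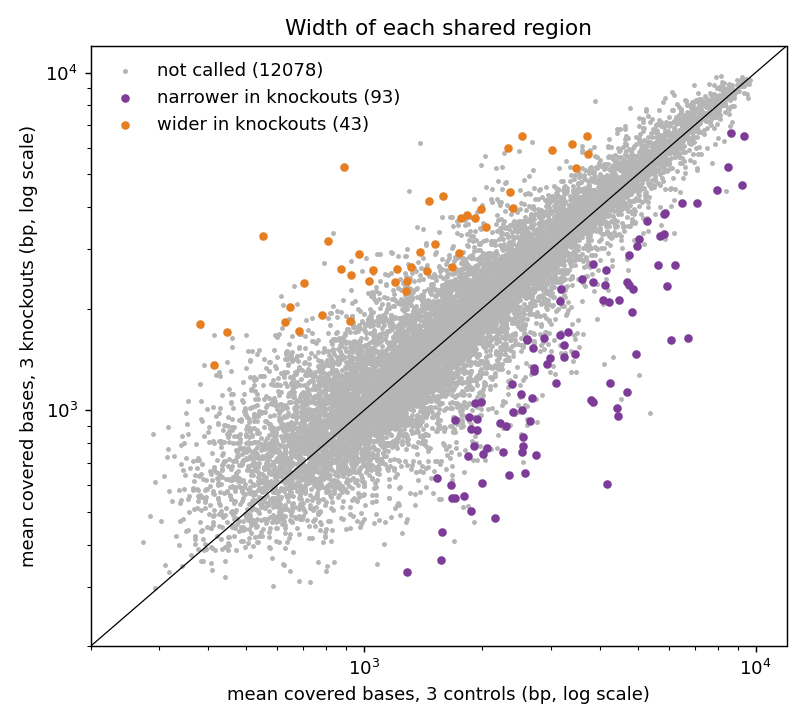
Mean number of bases under peaks in 3 knockouts (vertical) against 3 controls (horizontal) for each shared region, both on log scales, with the line of equality. Purple points are the 93 regions called narrower in knockouts and orange points the 43 called wider by limma, and the other regions follow the line.

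These calls stood close to their threshold. All 136 had adjusted p-values between 0.0453 and 0.0488 by limma, and no shared region was called without any 1 control, without knockout 2, or with a pseudocount of 10 bases (784 narrower and 772 wider at an unadjusted p under 0.05 with that pseudocount). Without knockout 3, 7 narrower and no wider ones were called, and without knockout 1, 196 and 112.

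The 93 narrower regions had a median log2 change of -1.11, and both of their ends lay inside those of every control in 47, only the left end in 23 and only the right end in 18. Ends inside those of the controls partly follow from the call. The shares over all shared regions were not computed, so these counts only describe the called regions. Their mean number of peaks was lower in knockouts in 34 and higher in 27. The same shares over all shared regions were not computed, so nothing is read from these 2 counts about splitting. The region at chr12:100846448-100850917 had 711, 384 and 719 bases under peaks in knockouts 1 to 3, against 3918, 4439 and 4172 in controls 1 to 3. In the controls 1 or 2 peaks filled most of the region, while each knockout had 1 or 2 short peaks. The log2 change was -2.68 with an SE of 0.29 (adjusted p = 0.0453 by limma). Close to it, chr12:100851591-100858737 had 2242, 1784 and 870 bases in knockouts, against 6526, 6934 and 6733 in controls (log2 change -2.11, SE 0.25, limma adjusted p = 0.0457). It was in 4, 2 and 2 peaks in knockouts and in 1, 1 and 2 in controls, so it was narrower in all knockouts and in more pieces than in any control only in knockout 1.

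At chr19:8971780-8976597 the knockouts had 1836, 798 and 421 bases and the controls 4236, 4317 and 4759, which gave -2.26 on the log2 scale (SE 0.41, adjusted p = 0.0486 by limma). At chr16:58520309-58525214 they had 1562, 778 and 548 bases, against 4869, 4477 and 3982 in controls (log2 change -2.24, SE 0.31, limma adjusted p = 0.0457). At both places every knockout was below every control, and knockout 1 kept the most. The other regions among the 10 largest falls had log2 changes from -2.03 to -1.87. They were chr15:55765025-55767569, chr14:26997804-27003296, chr12:69584377-69587103, chr14:45241930-45249260, chr9:56014433-56016276 and chr1:13224650-13229562. The one on chromosome 9, with 457, 305 and 319 bases in knockouts against 1703, 1671 and 1349 in controls, was a single peak in every library but control 3, so it narrowed without splitting.

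The 43 wider regions had a median log2 change of 0.99, with both ends outside those of every control in 17, only the left in 11 and only the right in 11. These counts, too, partly follow from the call and only describe the called regions. The largest rise was at chr13:111609444-111616356, with 4002, 6774 and 5020 bases in knockouts, against 1296, 376 and 988 in controls (log2 change 2.51, SE 0.40, limma adjusted p = 0.0457). It consisted of 6, 1 and 3 peaks in knockouts and 2, 1 and 2 in controls. At chr4:62504025-62508240 the knockouts had 3095, 4076 and 2705 bases and the controls 391, 673 and 594, which gave 2.35 on the log2 scale (SE 0.21, adjusted p = 0.0453 by limma). Each control had 1 short peak on the left side of this region, and the knockout peaks covered it and reached beyond it on both sides. A second region on the same chromosome, chr4:62968704-62972352, had 3258, 3291 and 2162 bases in knockouts, against 753, 1359 and 794 in controls (log2 change 1.48, SE 0.24, limma adjusted p = 0.0457).

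At chr10:93523008-93526536 the knockouts had 2818, 3267 and 3456 bases and the controls 967, 575 and 877, which gave 1.84 on the log2 scale (SE 0.22, adjusted p = 0.0457 by limma). A pair of regions was widened as a single peak in every library: chr2:150162506-150164686, with 1427, 1778 and 2181 bases in knockouts against 267, 560 and 317 in controls, and chr10:111050190-111052112, with 1594, 1923 and 1611 against 347, 626 and 366. In both, the groups were far apart, at log2 changes of 1.97 and 1.72. The remaining largest rises, between 1.47 and 1.58, were at chr14:118415421-118418436, chr7:98938443-98941017, chr10:30506877-30509925 and chr15:62634088-62635746.

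Shared regions with fewer peaks in every knockout than in every control numbered 169 (1.38%), and those with more peaks 23 (0.188%). Over all regions tested the shares were 5.54% and 1.49%. A region without a peak in one genotype counts there by itself and cannot be a shared region, so nothing is read from this difference. With all lists cut to equal length the counts were 81 and 17. In chr3:52184697-52192609 the knockouts had 3, 1 and 1 peaks and the controls 6, 5 and 5. Covered bases there were 6848, 7913 and 7300 in knockouts and 4285, 5411 and 5382 in controls, so fewer pieces covered more bases in each knockout, and the width was not called (log2 change 0.51, limma adjusted p = 0.0862). In chr1:173314073-173320187, with 2, 1 and 1 peaks in knockouts and 5, 3 and 3 in controls, 5479, 6091 and 5606 bases were covered in knockouts, against 3572, 3937 and 3656 in controls (log2 change 0.57, SE 0.10, limma adjusted p = 0.0476). The other regions named for fewer peaks, chr18:14786612-14795460, chr10:117915239-117924802 and chr1:91114150-91124144, had 1 to 3 peaks in each knockout and 3 to 5 in each control, with no call on width.

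Among regions with more peaks in every knockout, chr14:45271414-45280115 had 3 peaks in each knockout, against 1, 2 and 2 in controls. Its covered bases were 4479, 4878 and 4148 in knockouts and 8059, 8176 and 7751 in controls, which gave -0.85 on the log2 scale (SE 0.077, adjusted p = 0.0453 by limma), so it was split and narrowed at once. In chr11:78051654-78057038, with 2, 2 and 3 peaks in knockouts and 1 in each control, covered bases went the other way, with 4015, 4297 and 3788 in knockouts and 2484, 2728 and 2899 in controls (log2 change 0.53, limma adjusted p = 0.0540). In chr14:122138844-122145046, chr1:60929466-60935476 and chr17:66245530-66249484, every knockout had 2 to 4 peaks and every control 1 or 2. None of these was called for width.

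**Figure D5:**
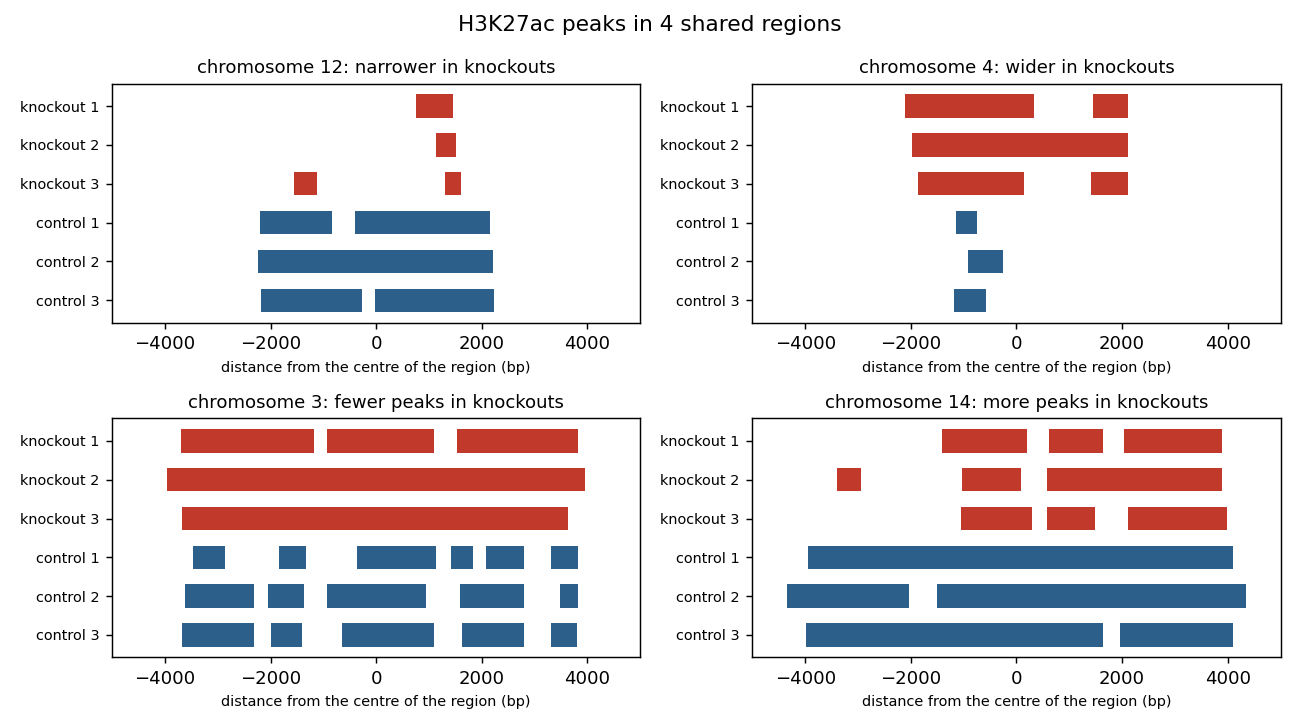
H3K27ac peaks of each library, drawn to scale as bars, in 4 shared regions, with distance from the centre of the region in bp. The region on chromosome 12 keeps short peaks in knockouts, that on chromosome 4 has 1 short peak per control, and those on chromosomes 3 and 14 are in 1 to 3 peaks against 5 or 6, and 3 against 1 or 2.

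The 5 strongest shared regions were not called for width. By mean −log10 p over the 6 lists, as the authors gave it for each peak, the leading region was chr11:59699337-59704044, at 475. It had 2973, 4708 and 4243 covered bases in knockouts, against 2949, 4094 and 4612 in controls, with overlapping groups. The next were chr11:103232729-103238513 at 398, chr18:32529326-32534381 at 393, chr8:125425391-125434591 at 392.4 and chr5:124347922-124357368 at 391.6. At the region on chromosome 18, a single peak in every library, the knockouts had 4733, 4867 and 4689 bases and the controls 4711, 4996 and 4996. Log2 changes of the 5 lay between -0.10 and 0.02, and none was called by limma (adjusted p from 0.695 to 0.995).

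Shared regions were nearly free of H3K27me3, the repressive mark placed by Polycomb complexes. Only 7 of 12214 (0.0573%) overlapped a peak in any of the 4 H3K27me3 lists, against 31 of 9737 other tested regions (0.318%). By list, 0 and 6 shared regions overlapped H3K27me3 in ChimeraKO1 and ChimeraKO2, whose lists held 36053 and 56634 peaks. In ChimeraWT1 and ChimeraWT2 it was 0 and 2, with 7507 and 43253 peaks listed. The H3K27ac libraries 1 to 3 of either genotype are from the chimeras numbered 2 to 4 in the titles, so only the chimeras numbered 2 had both marks. Shared regions made up 51.8 to 57.5% of the tested regions of each chromosome. The nearest other shared region lay at a median distance of 6678 bp, and 57.0% had one within 10 kb, while 17.3% had none within 50 kb. Where called regions were neighbours within 50 kb, which happened 13 times, both were called in the same direction. Most calls were of 1 direction (93 narrower, 43 wider), and some neighbours lay close together. The agreement among neighbours over all shared regions was not computed, so nothing is read from this count.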

How the data were processed

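Per the submitters' processing notes, Bowtie2 2.2.4, deepTools 3.5.1, MACS2, ChIPseeker 1.30.3 and HOMER 4.11 were used, with build mm39. Settings, the background library and the treatment of duplicates are not given in the sources used here. The 10 deposited lists are of 1 library each. The authors deposited for each peak its start, end and summit, a whole-number score, a fold enrichment as a ratio, and p and q values as −log10. These values describe or rank peaks within a list.

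Peaks of chromosomes 1 to 19 were merged at 1 bp overlap, and positions are counted from 1. Covered bases are the sum of peak widths of a library in a region. Library values were compared by exact permutation tests of the difference of means. Regions were tested with limma 3.58.1 (trend, robust, Benjamini-Hochberg) in R 4.3.3 on log2(bases + 100), which understates changes of narrow regions. The same fit was also run on simulated data built from the means and spreads of the fitted regions. Peak lists hold no counts from which the sampling error of a width could be estimated. Depth was read back from fold and −log10 p of peaks with −log10 p under 12, by a Poisson model with whole pileups, which fitted between 98.0 and 99.9% of them within 0.01. The regions and lists were chosen with earlier results of these data known. Regions named in the text were up to 10 per direction with the largest called change, up to 5 per direction for peak number and the 5 strongest. No gene lists, promoters or sequences were used, since no genome of mm39 was at hand. Alternatives were lists of equal length (20900 peaks), a −log10 q of at least 10, other pseudocounts, scalings, filters and joining gaps, a replicate block and leaving out libraries.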

Additional observations from a re-analysis of the deposited data

How the results depend on the processing

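With peaks of −log10 q of at least 10, 7545 regions were shared, and lists of equal length gave 9892. The difference in median covered bases ranged from -54.8 to 162 bp without 1 library. The difference in split regions stayed negative in all alternatives run, from -9.82 to -3.31 points without 1 library. Stricter peaks gave 56 narrower regions. Adding 10 bases in place of 100 before taking logs gave 0 narrower and 0 wider ones (784 and 772 at an unadjusted p under 0.05 by limma), and adding 1000 gave 154 and 92. Without centring 84 were wider. Without 1 library, narrower calls ranged from 0 to 196 and wider ones from 0 to 112, and between 482 and 990, and 468 and 933, passed an unadjusted p under 0.05. Regions with more peaks in every knockout numbered 5 with stricter peaks and 38 to 104 without 1 library, which eases the rule. Those with fewer peaks numbered 81 with equal lists, 84 with stricter peaks, 86 with gaps of 500 bp joined and 203 to 503 without 1 library. The joining gap of 279 bp and the base-by-base gaps were chosen after seeing the data. None of the 20 regions named for width stayed called with 10 bases (limma adjusted p = 0.0585), and none changed direction in the 12 alternative fits of the same regions. The cause was not tested.

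Deviations of same-numbered libraries from their group means correlated at 0.28, 0.063 and 0.068 across regions, and only knockout 1 correlated best with its own number, so the numbers are not taken as pairs. With a replicate block limma called 0 narrower and 0 wider (763 and 910 at an unadjusted p under 0.05), and the paired difference in covered bases stayed 48.5 bp (exact sign-flip p = 0.75) and that in split regions -7.09 points (p = 0.25 by the exact test, the smallest that 3 pairs allow). Covered bases give the extent of enrichment and not its strength, and the part of depth in which weak edges were called was not tested.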
